A study of Mus musculus with 32 samples.

Results

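Mouse epidermal organoids grown with an inhibitor of TGF-beta signalling were compared before and after serial passaging. Of the 32 libraries of the series, 8 belong to this comparison and were taken by their labels: 6 early libraries and 2 unpassaged libraries. The early organoids had been passaged 7 to 12 times within 3 months, in medium with forskolin plus the inhibitor (4 libraries) or without forskolin (2 libraries). The unpassaged organoids (0 passages) gave 1 library per medium. All 8 came from cultured organoids of mouse skin, strain Bl/6, taken on day 7, and all were grown with the inhibitor, so no library without it enters the main comparison. The titles call the material bulk organoid cells and name no gate, while the shared extraction protocol speaks of sorting into Trizol. RNA was counted by CEL-seq2, which reads the 3′ ends of polyadenylated transcripts. The labels name no inhibitor by compound. Nothing in them ties replicates to different mice or cultures, and each p-value therefore reflects only how these samples scatter, which could be technical.

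TGF-beta ligands bind a pair of receptor kinases that phosphorylate SMAD proteins, and in keratinocytes this signal stops the cell cycle through the inhibitors Cdkn1a and Cdkn2b. Blocking the receptor kinase is a common way to keep epithelial cells dividing in culture. Serial passaging of keratinocytes is known for a rise of Cdkn2a, the locus of the cell cycle inhibitor p16Ink4a and of the p53 activator p19Arf. Forskolin activates adenylyl cyclase and so raises cyclic AMP.

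The 8 libraries held 734041 to 2337596 counts and detected 11799 to 13322 genes. Every library expressed the basal keratinocyte keratins, with Krt14 between 10640.1 and 13975 CPM (counts scaled to a common library total by TMM over the 8 libraries) and Krt5 between 8814 and 14795, as the label of epidermal cells implies. Several defining markers of other skin cells were at or near 0. Cd207 (Langerhans cells), Dct and Tyr (melanocytes), Krt20 (Merkel cells), Lum and Pdgfrb (fibroblasts) and Hba-a1 (red blood cells) were at 0 in all 8 libraries, and Ptprc, Cd3e, Pecam1 and Col1a1 stayed below 2 CPM. The summed level of the 12 fibroblast genes was 24.0 and 41.9 CPM in unpassaged and 14.7 to 36.4 in early libraries. That of the 9 Merkel cell genes was 9.34 and 14.9 CPM in unpassaged and 1.71 to 13.2 in early libraries. In unpassaged libraries most of this sum was Krt18, a simple epithelial keratin also in the oral list. Krt18 measured 8.45 and 10.8 CPM unpassaged and 0 to 6.00 early, without overlap (adjusted p = 0.176). In early libraries its part varied, and it was 6.00 of 13.2 CPM in replicate 2 with forskolin. The summed level of the 12 antigen presenting cell genes was 14.2 and 14.9 in unpassaged and 2.51 to 30.6 in early libraries. Within it, H2-Ab1 measured 12.5 and 11.2 CPM unpassaged and 0 to 25.8 early. H2-Eb1 measured 0 and 1.66 CPM unpassaged and 0 to 15.7 early. Neither passed edgeR's test (adjusted p = 0.510 and 0.0940), and DESeq2 called H2-Eb1 higher (adjusted p = 0.0162). In bulk RNA, fewer cells of a type and less RNA per cell cannot be told apart.

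One property of the files bears on every result. Libraries whose files list the same genes were taken as 1 source table. Both unpassaged libraries lie in one table (14946 genes listed) and all 6 early libraries in another (17360 genes), so within the 8 libraries passaging and source table cannot be told apart. Early organoids grown with forskolin and Fgf10 or Fgf1 lie in both tables, and none of them is in the main comparison. Replicate 1 of each FGF medium lies in the table of the unpassaged libraries. Replicates 2 to 4 with Fgf10 and replicate 2 with Fgf1 lie in that of the early inhibitor libraries. These 6 early FGF libraries gave the size of the table difference. With the unpassaged FGF organoids, they joined the 8 libraries in a fit of 16, in which source table is a term of its own. That fit takes the table difference to be the same under FGF and under the inhibitor, which was not tested. Values from it are called table-adjusted here.

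Of 9109 genes tested, 125 (1.37%) differed between early and unpassaged organoids at an adjusted p under 0.05 in edgeR's quasi-likelihood test with medium as a term: 56 (0.615%) were higher and 69 (0.757%) lower in early organoids. Named genes that rose included Cdkn2a, Pitx1, Mid1, Id2 and Tgm3, and named genes that fell included B2m, Psmb9, Hmgb2, Inhbb and Serpinb2. DESeq2 called 194 genes higher (2.13%) and 145 lower (1.59%), and at an unadjusted p under 0.05 there were 818 (8.98%) and 828 (9.09%). The levels of the 6 early and 2 unpassaged libraries did not overlap for 124 of the 125 genes, and for 1685 of all genes tested (18.5%). The median log2 difference over all genes was 0.02, with 4666 positive and 4443 negative. No gene was called when either unpassaged library was left out, or when replicate 2 of the early organoids with inhibitor alone was, and 7 were called without its replicate 1. With source table as a term, 2 of 8890 genes were called (0.0225%), Cdkn2a and Mid1, both higher in early organoids.

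Cdkn2a was the member of the p53 and senescence list that rose. The gene lies on chromosome 4 at 89274471 to 89294653 (mm10, minus strand) and is protein-coding. Its level was 1.33 CPM in the unpassaged library with forskolin and inhibitor and 2.08 in that with inhibitor alone, from 3 and 5 counts. In early organoids with forskolin and inhibitor it was 11.3, 18.0, 16.01 and 30.3 CPM in replicates 1 to 4, and with inhibitor alone 23.5 and 19.6. All early libraries lay above both unpassaged ones, without overlap, in either medium. The log2 difference was 3.53 (SE 0.50, edgeR adjusted p = 0.0203), and the table-adjusted value was 3.86 (SE 0.59, adjusted p = 0.0395). Between the source tables, early FGF organoids differed by -0.29 (adjusted p = 0.698).

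The locus has separate start sites for its transcripts, and both share the last exons, so 3′ counts do not tell p16Ink4a from p19Arf. The bases before each start are shown because they are the alternative control regions of a gene that passed both fits (RefSeq, GRCm38.p6, minus strand, 200 bases ending 51 bases before the start, CG dinucleotides in capitals).
Cdkn2a, upstream start (p19Arf side), chr4:89294670-89294869: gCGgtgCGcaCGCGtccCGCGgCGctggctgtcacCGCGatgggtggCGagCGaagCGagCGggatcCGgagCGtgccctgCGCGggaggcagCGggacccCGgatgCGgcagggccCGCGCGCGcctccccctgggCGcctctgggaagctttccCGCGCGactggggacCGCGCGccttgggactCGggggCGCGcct
Cdkn2a, downstream start (p16Ink4a side), chr4:89282243-89282442: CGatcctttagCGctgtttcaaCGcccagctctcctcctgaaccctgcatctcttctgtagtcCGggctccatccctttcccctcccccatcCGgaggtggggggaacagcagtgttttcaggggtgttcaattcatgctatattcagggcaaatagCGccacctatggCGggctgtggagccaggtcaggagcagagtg
The upstream window holds 34 CG dinucleotides and the downstream one 7, against a median of 4 over 32851 promoter windows of the same length. The counts bear on neither start by itself.

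The rest of the p53 and senescence list did not pass the test. Of 26 genes 23 were tested, and 1 was higher and none lower (0.615% and 0.757% of all genes). A positive difference was found for 18 and a negative one for 5. The list's median was 0.54 against 0.02 for all genes (0.56 table-adjusted, against 0.01). At an unadjusted p under 0.05, 9 were higher and 0 lower (8.98% and 9.09% of all genes), and DESeq2 called 3 higher (2.13% of all genes). Trp53inp1, a p53 target that promotes cell death and autophagy, measured 5.34 and 4.57 CPM unpassaged and 11.3 to 29.4 early (log2 difference 1.95, adjusted p = 0.0535). Ccng1, another p53 target, measured 85.0 and 78.5 CPM against 123 to 193 (0.88, adjusted p = 0.102). Trp53inp1 and Ccng1 were picked after their values were seen. Cdkn1a, the p53 target that encodes p21, measured 597 and 684 CPM against 643 to 1388, with overlap (0.61, adjusted p = 0.226). Perp, also of this list, measured 1257 and 1208.5 CPM against 677 to 1645, with overlap (-0.07, adjusted p = 0.921). Cdkn2b, the TGF-beta responsive neighbour of Cdkn2a, measured 27.1 and 35.7 CPM unpassaged and 16.3 to 46.1 early, a difference of 0.12 (SE 0.29, adjusted p = 0.868). So within this locus Cdkn2a passed the test and Cdkn2b did not, and the difference between both was not tested.

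**Figure D1:**
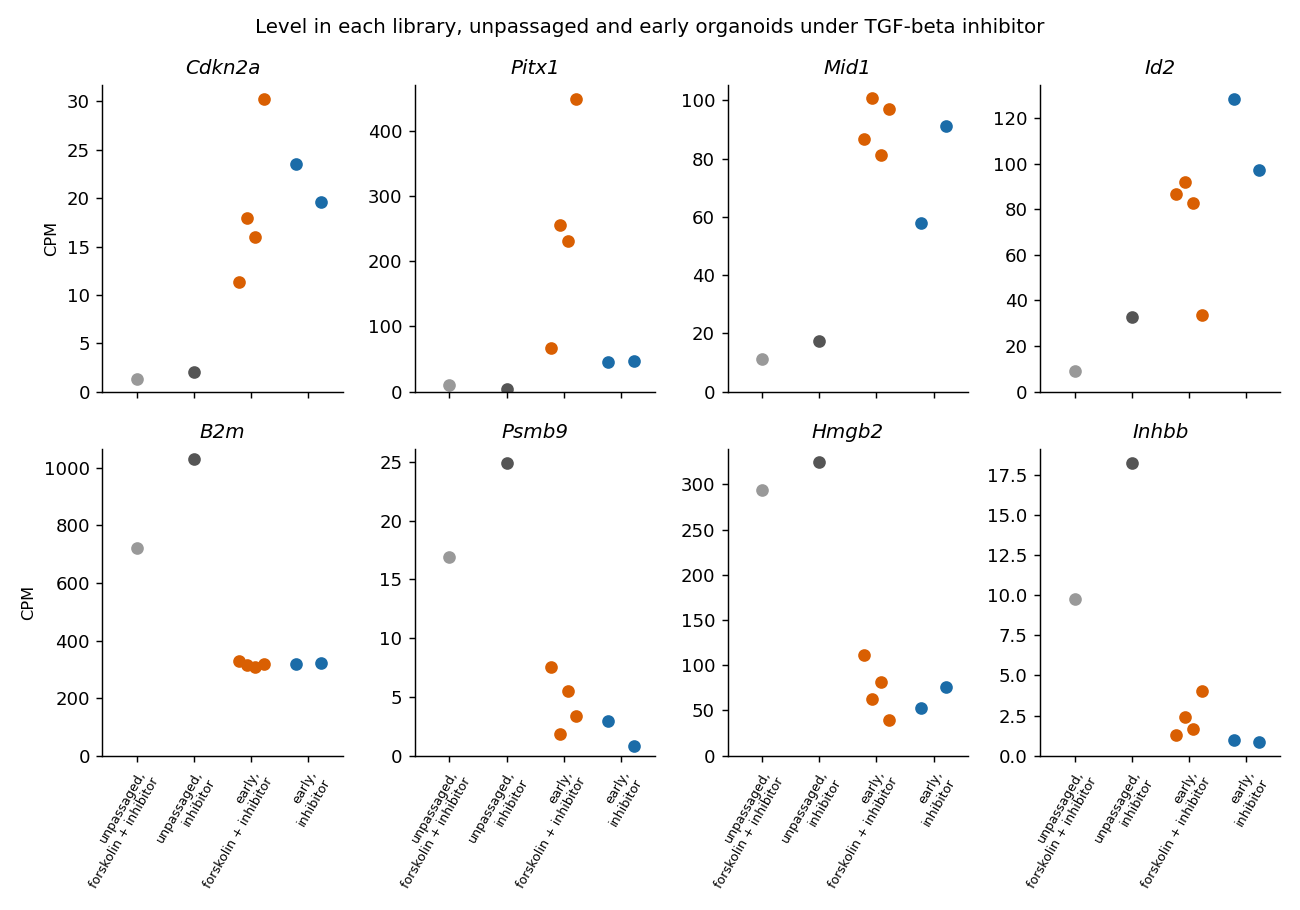
Level (CPM) of 8 genes in each of the 8 libraries, 1 point per library, by passage state and medium. The early points of Cdkn2a, Pitx1, Mid1 and Id2 lie above both unpassaged points and those of B2m, Psmb9, Hmgb2 and Inhbb below them; for Id2 the gap is 33.6 against 32.8 CPM.

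Of 25 mitosis genes and 26 DNA replication genes tested, none passed the test in either direction (unadjusted p under 0.05: 1 higher and 1 lower, and 0 and 3; DESeq2: 0 in both lists). Their medians were -0.43 and -0.32, and -0.76 and -0.67 table-adjusted. Mki67, a marker of dividing cells, measured 85.4 and 70.6 CPM unpassaged and 81.0 to 156 early (0.37, adjusted p = 0.492). Its direction turned to -1.55 table-adjusted (edgeR adjusted p = 0.999), with a table difference of 2.07 among early FGF organoids (adjusted p = 0.0582). Early organoids with forskolin and inhibitor, replicates 1 and 3, were the highest for Mki67 at 156 and 146 CPM. They were also the highest for Top2a, which untangles DNA before division, at 537 and 462. Top2a differed by 0.11, and by -1.11 table-adjusted, and passed in neither fit (edgeR adjusted p = 0.890 and 0.999). Hmgb2, a chromatin protein abundant in dividing cells, fell, with 294 and 325 CPM unpassaged against 112, 62.4, 81.3 and 39.0 with forskolin and 52.96 and 75.9 without (log2 difference -2.16, SE 0.31, adjusted p = 0.0203). Its table-adjusted value was -0.92 (adjusted p = 0.999). Myc, the growth-promoting transcription factor, fell by 1.57 (adjusted p = 0.0274), and by 0.17 table-adjusted.

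Pitx1, a homeobox transcription factor of hindlimb and oral epithelium, was the named protein-coding gene with the largest rise. It lies on chromosome 13 at 55825051 to 55836192. Unpassaged organoids had 10.2 CPM with forskolin and 4.98 without. Early organoids had 66.5, 255, 231 and 448 CPM with forskolin and 45.1 and 47.8 with inhibitor alone. The groups did not overlap, and within early organoids all 4 libraries with forskolin exceeded both without it. The log2 difference was 4.04 (SE 0.75, adjusted p = 0.0355). The table-adjusted value was 3.42 (SE 0.77) and did not pass (adjusted p = 0.505), with a table difference of 0.61 among early FGF organoids. On 1 scale over all 32 libraries, Pitx1 was at 0 in all 3 sorted epidermis, 3 anagen follicle and 3 mixed follicle libraries, and 133 to 266 CPM in early FGF organoids.

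In the list of simple, oral and limb epithelium, 1 of 16 tested genes was higher (Pitx1) and 0 lower, beside 0.615% of all genes higher. At an unadjusted p under 0.05, 5 were higher and 1 lower (8.98% and 9.09% of all genes), and DESeq2 called 2 higher, Pitx1 and the serine protease gene Tmprss11d (3.39, edgeR adjusted p = 0.183, DESeq2 adjusted p = 0.0497), which was picked after its values were seen. In the list 13 had a positive difference, and the median was 0.68 (0.89 table-adjusted). Krt4, a keratin of internal stratified epithelia, was split by library: 1.33 and 3.32 CPM unpassaged, 0, 78.0, 99.9 and 103 in early organoids with forskolin, and 7.85 and 4.26 with inhibitor alone (adjusted p = 0.266). Tmprss11a, a transmembrane serine protease, was also highest in replicates 2 to 4 with forskolin, at 13.2, 10.1 and 20.2 CPM against 2.56 or less in all other libraries (adjusted p = 0.110). These Krt4 and Tmprss11a levels were high in the 3 libraries with the highest Pitx1.

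Mid1, an X-linked ubiquitin ligase that binds microtubules, kept its call in both fits. It measured 11.1 and 17.4 CPM unpassaged, 86.6, 101, 81.3 and 96.8 in early organoids with forskolin and 57.9 and 91.3 without, with no overlap. The log2 difference was 2.56 (SE 0.31, adjusted p = 0.0175), and 3.13 table-adjusted (SE 0.45, adjusted p = 0.0377). Mid1 spans the boundary of the mouse pseudoautosomal region. On 1 scale over 16 libraries, its level among FGF organoids split by medium before and after passaging. With Fgf10 it was 32.1 CPM unpassaged and 42.1 to 83.6 early. With Fgf1 it was 0.967 CPM unpassaged and 5.21 and 6.55 early. On 1 scale over all 32 libraries it also varied outside organoids under the inhibitor. It measured 8.65 to 67.9 CPM in sorted epidermis and 34.1 to 135 in anagen follicles. Mixed follicles had 2.72 to 8.77 CPM and late organoids 0 to 5.82. Tubb3, a beta tubulin best known from neurons, was picked for its values: 27.6 and 34.0 CPM unpassaged against 107 to 157 early (2.14, adjusted p = 0.0139; table-adjusted 1.95, adjusted p = 0.114). Beta tubulin genes are alike in sequence, so this count is uncertain where reads could match a relative.

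Of 13 TGF-beta ligand, receptor and SMAD genes tested, 0 were higher and 1 lower (0.757% of all genes were lower), with a median of -0.19. At an unadjusted p under 0.05, 0 were higher and 2 lower (8.98% and 9.09% of all genes). DESeq2 called the same pair lower (1.59% of all genes), Inhbb and the receptor gene Tgfbr2 (log2 difference -1.33, edgeR adjusted p = 0.0536, DESeq2 adjusted p = 0.0129). Tgfbr2 lies outside the rule for named genes and was picked after its values were seen. The gene past edgeR's test was Inhbb, the beta B subunit of activins, from 9.79 and 18.3 CPM to 1.26, 2.40, 1.69 and 4.03 with forskolin and 0.981 and 0.853 without. It fell, with a log2 difference of -2.76 (SE 0.52, adjusted p = 0.0371), and the table-adjusted value of -2.89 did not pass (adjusted p = 0.999). Early counts of Inhbb were 1 to 6 per library. None of 13 TGF-beta target genes passed (unadjusted p under 0.05: 1 higher, 2 lower; DESeq2: 0 and 1), with a median of -0.09.

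Id2 is an inhibitor of differentiation factors and a target of BMP signalling. Of 5 BMP targets tested it was the 1 that rose (0.615% of all genes were higher). It measured 8.90 CPM in the unpassaged library with forskolin and 32.8 in that without. In early organoids with forskolin, replicates 1 to 3 had 86.6, 91.8 and 82.6 CPM and replicate 4 had 33.6, and with inhibitor alone the levels were 128 and 97.2. The highest unpassaged and lowest early library nearly touched. The log2 difference was 2.34 (SE 0.46, adjusted p = 0.0404; table-adjusted 2.67, adjusted p = 0.588). On the scale of 16 libraries, all 8 early and unpassaged FGF libraries had Id2 between 5.34 and 12.0 CPM. The interaction with FGF media was 2.37 and did not pass (edgeR adjusted p = 0.385). On 1 scale over all 32 libraries, the 6 late libraries with forskolin and Fgf1 (23 to 30 passages) had 20.4 to 167 CPM. The unpassaged library with forskolin alone had 39.1 on that scale. The labels of these 2 groups name no inhibitor. Id1 and Id3, its relatives, differed by 0.47 and 0.16 and did not pass (adjusted p = 0.434 and 0.898).

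MHC class I presentation fell in 2 of 15 tested genes and rose in none (median -0.87, and -0.48 table-adjusted). Of the 15, 13 had a negative difference, beside 4443 of all 9109 genes tested. Over all genes 0.757% were called lower. At an unadjusted p under 0.05, 7 of the 15 were lower and 0 higher (9.09% of all genes lower). DESeq2 called 3 lower (1.59% of all genes), B2m, Psmb9 and Psmb8. B2m, the invariant light chain of class I molecules, lies on chromosome 2 at 122147686 to 122153083. It measured 721 and 1030.4 CPM unpassaged and 328, 314, 309, 318, 317 and 323 in early organoids, a mean of 318 ± 6.51 (SD, n = 6). The early libraries were close to each other in both media and all below the unpassaged ones. The log2 difference was -1.42 (SE 0.18, adjusted p = 0.0203). The table difference for B2m was -1.02 (adjusted p = 0.0770), and the table-adjusted value -0.41 (SE 0.28, adjusted p = 0.999). Psmb9, an immunoproteasome subunit that cuts peptides for class I, fell from 16.9 and 24.9 CPM to 7.53, 1.80, 5.48, 3.36, 2.94 and 0.853 (-2.59, SE 0.51, adjusted p = 0.0404; table-adjusted -1.93).

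The other class I genes did not pass edgeR's test. Psmb8, the neighbouring immunoproteasome subunit, measured 35.6 and 82.2 CPM against 1.96 to 16.9 (-2.54, edgeR adjusted p = 0.0581, DESeq2 adjusted p = 0.00183). Tap2, a peptide transporter subunit, measured 38.7 and 56.9 against 8.74 to 27.0 (-1.33, adjusted p = 0.0950). H2-K1, a class I heavy chain whose reads may match close relatives, measured 263 and 319.7 against 105 to 246 (-0.87, adjusted p = 0.126). Tap1, H2-D1 and Calr differed by -0.60, -1.17 and -0.18, each with overlap (edgeR adjusted p = 0.324, 0.194 and 0.673). Tapbp, the chaperone tapasin, had a positive difference of 0.33 (edgeR adjusted p = 0.541). Psmb8, Tap2, H2-K1, Tap1 and H2-D1 were picked after their values were seen. The interferon response list gave no call among 9 genes tested (unadjusted p under 0.05: 0 higher, 1 lower; DESeq2: 0), with a median of -0.46.

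The B2m promoter is shown because the early B2m levels were so even across both media. Genes of class I presentation are known targets of interferon-driven factors, which bind a repeated GAAA element, and the search was for GAAA, any 2 bases and GAAA again, on either strand (RefSeq, GRCm38.p6, plus strand, 200 bases ending 51 bases before the start, match in capitals).
B2m, chr2:122147437-122147636: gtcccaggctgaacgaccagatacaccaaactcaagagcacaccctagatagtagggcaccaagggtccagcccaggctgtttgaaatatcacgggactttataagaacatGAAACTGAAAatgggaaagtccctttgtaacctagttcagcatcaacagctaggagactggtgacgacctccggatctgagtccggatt
The motif occurs in 2.40% of the 32851 windows of this length, 790 in all. Of the 13 tested class I genes with a window, B2m was the 1 with a match. A match describes the letters only.

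Differentiation split the early libraries from each other more than from the unpassaged ones. Krt10, the keratin of suprabasal cells, measured 1089 and 3933 CPM unpassaged. In early organoids with forskolin it was 295, 461 and 185 CPM in replicates 1 to 3 and 6589.5 in replicate 4, and with inhibitor alone 9019 and 4231. Lor (loricrin, the main cornified envelope protein) followed the same split, with 314, 449.8 and 381 CPM in replicates 1 to 3, 6674 in replicate 4, and 12867 and 5123 with inhibitor alone, against 363 and 1671 unpassaged. So 3 of 4 early libraries with forskolin were low in both, and replicate 4 resembled the libraries grown without forskolin. Neither gene passed the test (0.77, SE 1.19, adjusted p = 0.775 for Krt10 and 2.43, SE 1.24, adjusted p = 0.334 for Lor). Over all genes, replicate 4 correlated with the early libraries with inhibitor alone at Spearman 0.936 and 0.937 and with replicates 1 to 3 of its own group at 0.876 to 0.919; these are correlations across genes, which are not independent replicates.

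**Figure D2:**
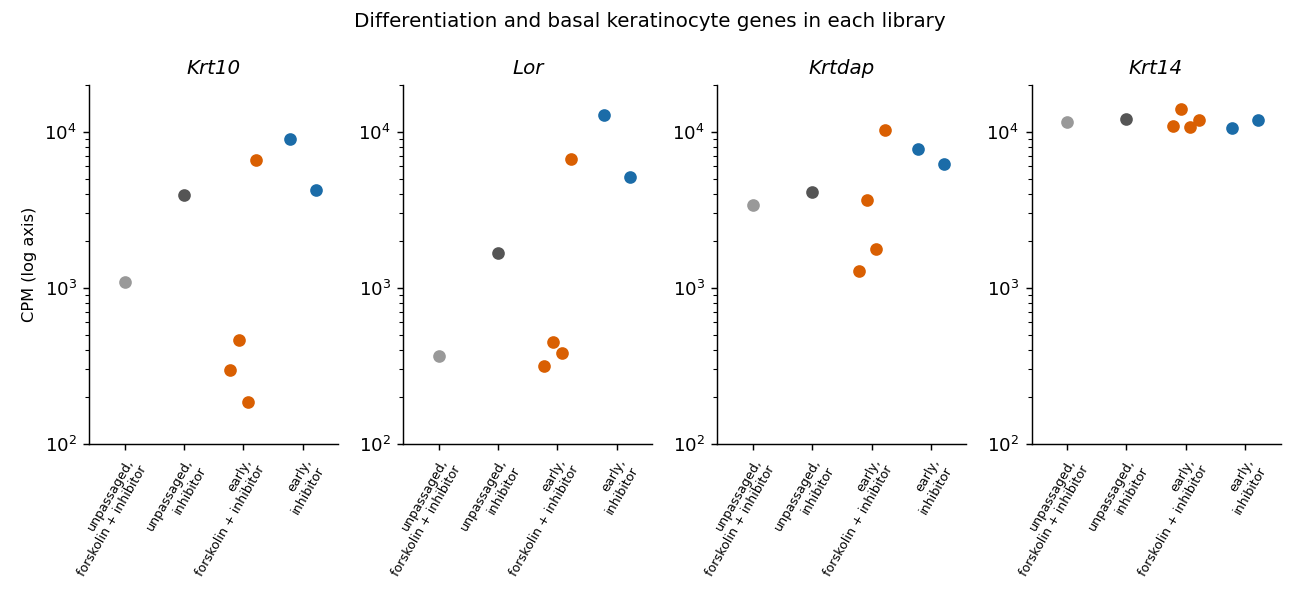
Level (CPM, log axis) of Krt10, Lor, Krtdap and Krt14 in each of the 8 libraries. Replicates 1 to 3 of early organoids with forskolin sit between 185 and 461 for Krt10 while replicate 4 is at 6589.5; Krt14 is even, between 10640.1 and 13975.

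Of the lists, the basal one was even over the early libraries. The spinous one followed the split of Krt10 and Lor, and the cornified envelope one did not. Summed over the spinous list, early libraries with forskolin had 8678, 17368 and 11524 CPM in replicates 1 to 3 and 35667 in replicate 4. Those with inhibitor alone had 40251 and 26006, and unpassaged libraries 15135.5 and 19738. Krtdap, of this list, had 1278, 3666 and 1777 CPM in replicates 1 to 3 and 10311 in replicate 4. It had 7781 and 6257 with inhibitor alone. None of 18 basal layer and hemidesmosome genes passed (median 0.05; unadjusted p under 0.05: 1 higher, 1 lower; DESeq2: 0) and none of 18 spinous layer genes (median 0.09; 0 higher, 2 lower; DESeq2: 0). Summed over the cornified envelope list, unpassaged libraries had 27888 CPM with forskolin and 25030.3 without and early libraries 11363, 60592, 29942 and 51890.3 with forskolin and 49550.1 and 42552 without, so replicate 2 with forskolin, low in Krt10 and Lor, was the highest. Of 27 cornified envelope genes tested 22 had a positive difference, beside 4666 of all 9109 genes tested, with a median of 0.96 (0.74 table-adjusted). Among these 27, 1 rose, beside 0.615% of all genes. It was Tgm3, a transglutaminase that cross-links envelope proteins, at 143 and 225 CPM unpassaged and 856, 1479, 1819, 1104, 950.3 and 836 early (2.59, SE 0.40, adjusted p = 0.0261; table-adjusted 1.82, adjusted p = 0.999). Tgm3 was high in every early library, including those with low Krt10 and Lor. Wound and culture keratinocyte genes gave no call among 25 tested (median -0.59). At an unadjusted p under 0.05, 0 were higher and 4 lower (8.98% and 9.09% of all genes). DESeq2 called 0 higher and 2 lower (2.13% and 1.59% of all genes). Outside this list, Serpinb2, a stress-induced protease inhibitor, fell from 122 and 145 CPM to 23.9 to 53.9 (-1.82, edgeR adjusted p = 0.0139, and -0.86 table-adjusted).

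Among follicle lists, none of 7 upper follicle and junctional zone genes passed, and the median was -1.02 (-0.58 table-adjusted). All 7 had a negative difference, beside 4443 of all 9109 genes tested. At an unadjusted p under 0.05, 0 were higher and 3 lower (8.98% and 9.09% of all genes). DESeq2 called 2 lower (1.59% of all genes). Lrig1, a stem cell marker of the junctional zone that restrains receptor kinases, measured 16.015 and 14.1 CPM against 0.981 to 6.74 (-1.91, adjusted p = 0.0510). Krt79, a keratin of the upper follicle, measured 7.56 and 14.5 CPM against 0 in 4 early libraries and 0.981 and 5.97 in those with inhibitor alone (adjusted p = 0.0777). Tchh (trichohyalin of the inner root sheath) fell from 14.7 and 33.2 CPM to 1.96 to 6.72 (-2.34, adjusted p = 0.0394, and -1.63 table-adjusted). It was the 1 call among 7 hair matrix and inner root sheath genes (0.757% of all genes were lower). At an unadjusted p under 0.05, 1 of the 7 was higher and 2 lower (8.98% and 9.09% of all genes), and DESeq2 called 1 lower. None of 9 bulge and stem cell genes passed (unadjusted p under 0.05: 1 higher, 1 lower; DESeq2: 0 and 1).

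In the FGF receptor and ERK feedback list 2 of 11 tested genes fell, beside 0.757% of all genes. At an unadjusted p under 0.05, 0 were higher and 4 lower (8.98% and 9.09% of all genes), and DESeq2 called 2 lower (1.59% of all genes). Fgfr3, a growth factor receptor, fell from 35.1 and 24.5 CPM to 2.94 to 18.0 (-1.89, adjusted p = 0.0355). Spry1, a feedback inhibitor of ERK signalling, fell from 12.5 and 18.7 to 2.51 to 5.88 (-1.89, adjusted p = 0.0404). Table-adjusted values were -0.88 and -1.04. Dkk3, a secreted Dickkopf family protein in the Wnt list, fell from 14.7 and 6.64 CPM to at most 1.26, with no count in 3 early libraries (adjusted p = 0.0203). Gpx2, a glutathione peroxidase induced by NRF2, rose from 3.56 and 5.40 CPM to 7.53 to 53.7 (2.65, adjusted p = 0.0355, and 1.85 table-adjusted). It was the 1 call among 20 NRF2 targets (0.615% of all genes were higher). At an unadjusted p under 0.05, 2 of the 20 were higher and 0 lower, and DESeq2 called 1 higher.

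Among lipid genes, Scd2, a fatty acid desaturase, fell from 1129.5 and 761 CPM to 393 to 669.6 with forskolin and 200.1 and 145 without (-1.57, adjusted p = 0.0358, and -1.25 table-adjusted). It was the 1 call among 19 fatty acid and lipid transport genes (0.757% of all genes were lower). Osbpl8, a lipid transfer protein of membrane contact sites, fell by 1.52 (adjusted p = 0.0382) and by 1.32 table-adjusted. Idi1, an enzyme of the isoprenoid pathway to cholesterol, was the 1 call among 24 cholesterol genes (0.757% of all genes were lower). It measured 418 and 452 CPM unpassaged and 116 to 207 early (-1.37, adjusted p = 0.0274). Its direction turned to 0.44 table-adjusted, and it was also the 1 gene called between source tables among early FGF organoids (-1.80, adjusted p = 0.0129; 0.0114% of 8769 genes). On 1 scale over 16 libraries Idi1 had 473 and 435 CPM in the early FGF libraries of the first table and 127 to 137 in those of the second. Glycolysis and hypoxia genes had a median of -0.77 (-0.33 table-adjusted) with no call among 22 in edgeR or DESeq2. At an unadjusted p under 0.05, 0 were higher and 5 lower (8.98% and 9.09% of all genes).

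**Figure D3:**
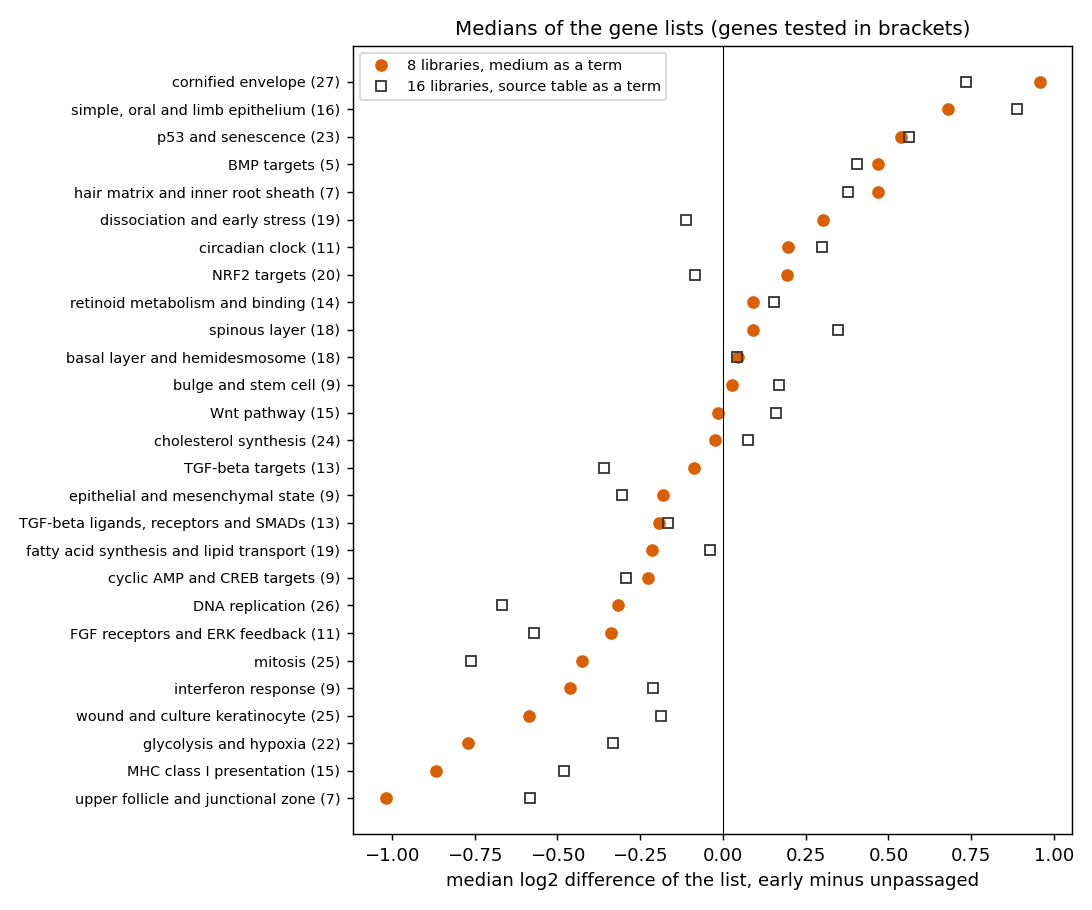
Median log2 difference, early minus unpassaged, of each gene list with at least 5 genes tested. Filled points are from the 8 libraries with medium as a term and open squares from the fit of 16 libraries with source table as a term; MHC class I presentation is at -0.87 and -0.48, and p53 and senescence at 0.54 and 0.56.

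Some of the largest rises were in genes whose counts are uncertain or that are not mRNA. Malat1, a nuclear long noncoding RNA, measured 412 and 943 CPM unpassaged and 2031 to 6743 early (2.63, adjusted p = 0.0456). Kcnq1ot1, a noncoding RNA antisense to Kcnq1 and picked after its values were seen, measured 959 and 1231 against 3192 to 6115 (2.11, adjusted p = 0.0203). Both are retained in nuclei, and the part of nuclear or RNA quality differences in other results was not tested. Mir1950 measured 0.890 and 1.25 CPM, from 2 and 3 counts, against 11.9 to 84.1 (4.72, adjusted p = 0.0355). It lies inside the protein-coding gene Kif20b at chromosome 19, 34965396 to 34965469, on the same strand, so its counts may be reads of the host, and its table difference was 3.15. Vmn2r55 and Zfp560 rose by 2.85 and 3.12 and belong to families with near-identical members. Of the 56 genes called higher, 12 were predicted genes or pseudogenes, against 1 of the 69 called lower. Their share among all genes tested is not given here, so no excess is read from these counts.

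Cmah, the enzyme that makes N-glycolylneuraminic acid, rose from 14.2 and 15.8 CPM to 65.3 to 163 (2.71, adjusted p = 0.0253; table-adjusted 1.63), and Ces2e, a carboxylesterase, from 24.5 in both to 48.0 to 106 with forskolin and 223 and 204 without (2.23, adjusted p = 0.0392; table-adjusted 0.99). Several genes that fell had table-adjusted values nearer 0. Ppp4c, the catalytic subunit of protein phosphatase 4, fell by 1.97 and by 0.12 table-adjusted, Gadd45a (a DNA damage-inducible growth arrest gene) by 1.77 and 0.23, Eaf1 (a transcription elongation factor partner) by 1.57 and 0.03, and Exosc3 (an RNA exosome subunit) by 1.49 and 0.13. Sdhd, a succinate dehydrogenase subunit, fell by 1.68 and table-adjusted by 0.58.

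Across all genes the passaging difference and the source table difference ran together. Over 8529 genes in both fits, which share no library but the same pair of tables, their log2 differences correlated at r = 0.52, across genes. Of 117 called genes in both fits, 107 (91.5%) had the sign of the table difference, against 69.8% of all genes. The median of the called higher genes went from 2.22 to 1.36 with the table term, and 36 of 56 stayed at 1 or above. The median of the called lower genes went from -1.57 to -0.25, with 17 of 68 at -1 or below and 12 above 0. At an unadjusted p under 0.05, 1358 of 8769 genes (15.5%) differed between tables among early FGF organoids.

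**Figure D4:**
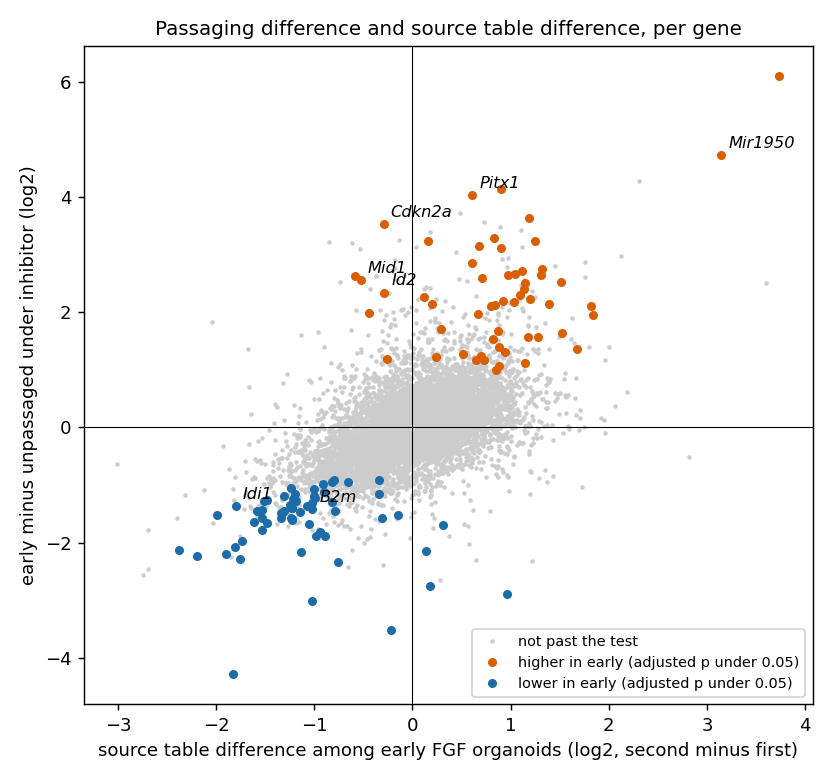
Each point is a gene; x axis, log2 difference between source tables among 6 early FGF libraries; y axis, log2 difference of early minus unpassaged organoids under the inhibitor. Genes called higher or lower are coloured; most lie in the quadrants where both differences have the same sign, while Cdkn2a, Mid1 and Id2 rose with a table difference below 0.

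The change with passaging under the inhibitor differed from that in FGF media for 3 of 8890 genes (0.0337%), by the interaction term over 16 libraries, and 594 (6.68%) had an unadjusted p under 0.05. All 3 were lower in early than in unpassaged FGF organoids, by -4.71 for Apoe, -3.32 for Tmprss2 and -2.15 for Eid1 on the log2 scale. Levels here are CPM on 1 scale over the 16 libraries. Apoe, a lipid carrier apolipoprotein, measured 652 and 1087 CPM unpassaged and 505 to 1166 early under the inhibitor, against 1285 and 819.9 unpassaged and 24.8 to 84.1 early with FGF. The change differed by 4.39 (adjusted p = 0.00942). Tmprss2, a transmembrane serine protease, measured 21.8 and 9.58 CPM unpassaged and 14.3 to 30.9 early under the inhibitor. With FGF it had 10.7 and 27.1 CPM unpassaged and 0 to 3.68 early, a difference in change of 3.94 (adjusted p = 0.00942). Eid1, an inhibitor of p300-dependent transcription, measured 62.3 and 78.2 CPM unpassaged and 67.5 to 169 early under the inhibitor, against 210.2 and 208 and 38.0 to 57.7 with FGF (2.75, adjusted p = 0.0361).

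**Figure D5:**
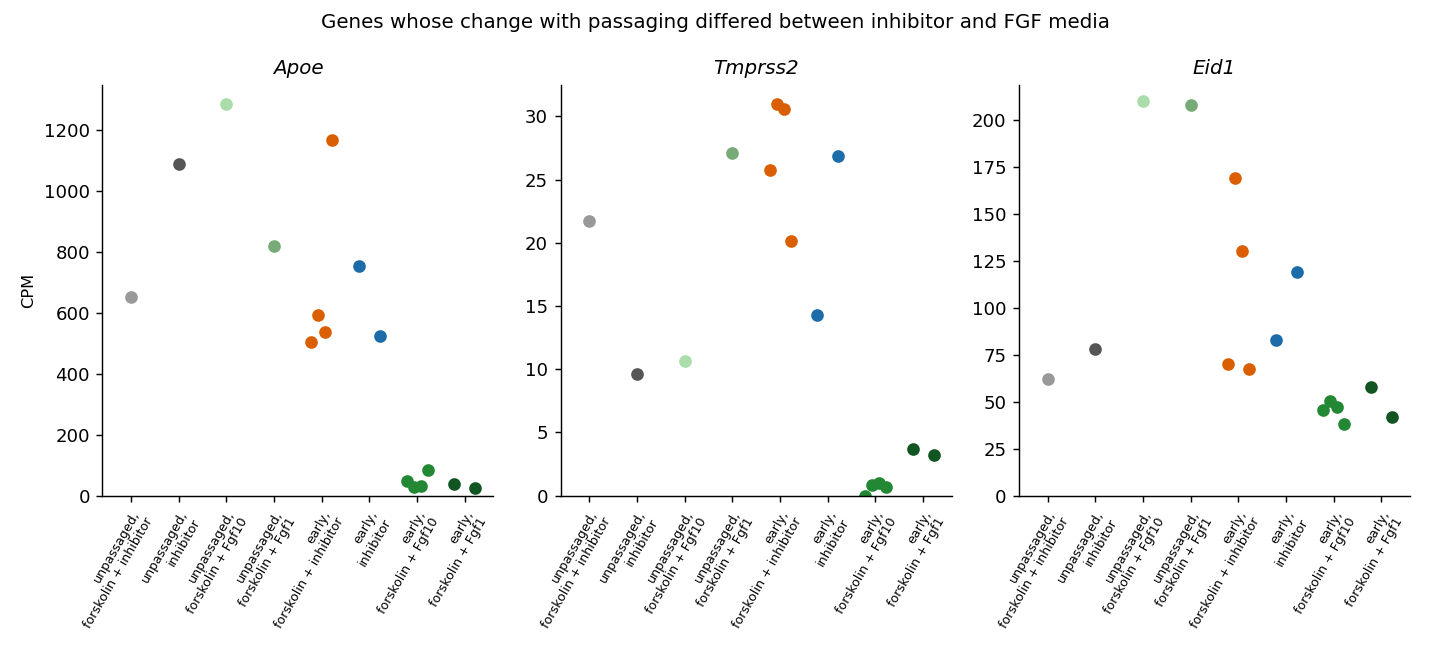
Level (CPM on 1 scale over 16 libraries) of Apoe, Tmprss2 and Eid1 in each library by passage state and medium. Early FGF libraries (24.8 to 84.1 CPM for Apoe) lie below all unpassaged and all early inhibitor libraries for Apoe and Tmprss2; for Eid1 they lie at 38.0 to 57.7, below the inhibitor libraries at 62.3 to 169.

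Under the inhibitor itself, none of these passed (Apoe -0.34, Tmprss2 0.60, Eid1 0.59; adjusted p = 0.663, 0.345 and 0.438). With source table as a term the interaction again called 3 genes, and with any of the 4 unpassaged libraries left out it called none. Cdkn2a, Pitx1 and Mid1 gave interaction values of 0.33, -0.06 and 1.42 that did not pass (adjusted p = 0.956, 0.997 and 0.647), and B2m 1.20 (0.652). Y-linked Ddx3y was expressed in all 8 inhibitor libraries (33.7 to 77.1 CPM), while early organoids with Fgf10 were mixed: replicates 1 to 3 had 0.810 to 2.03 CPM, with Xist at 18.6 to 51.3, and replicate 4 had 72.8. The part of this in the comparison with FGF media, in the table difference and in the table-adjusted values was not tested.

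Whether passaging acted differently with and without forskolin was asked by the interaction of medium and passage state, with 1 unpassaged library per side. No gene of 9109 passed in edgeR (0%), 237 (2.6%) had an unadjusted p under 0.05, and DESeq2 called 0. Pitx1 gave 1.41 and Cdkn2a 0.44, both with an adjusted p near 1.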

How the data were processed

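CEL-seq2 libraries were sequenced as 75-base paired reads on a NextSeq500, per the labels' protocols. BWA 0.6.2-r126 and the build mm10 are named in the submitters' processing notes, while for the counter, its annotation and any collapsing of molecular identifiers nothing is stated in the sources used here. Values as deposited are raw counts per gene, whole numbers made by the authors. Column headers that are numbers are names of libraries, not values.

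A gene missing from a library's file was taken as 0, 14 spike-in names were left out, and 4 symbols listed under 2 chromosomes were summed, giving 19970 gene names. Groups came from the labels. Genes passed edgeR's expression filter with a minimum count of 10 and a minimum total of 15. Tests used edgeR 4.0.16 in R 4.3.3, with TMM scaling, the quasi-likelihood test, medium as a term and Benjamini-Hochberg adjustment at 0.05, and DESeq2 1.42.0 as an alternative. CPM values are counts scaled to a common library total by TMM. The scripts were tested on simulated data. Depth was 734041 to 2337596 counts per library, and counts of 0 to 5 give little precision.

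The members and gene lists were chosen with earlier results of these data known. Named genes were the 10 largest changes each way past the test, with at least median expression and no overlap between groups; the same among genes that also pass with source table as a term; up to 4 passing and 2 not passing per list; the 5 largest each way of each interaction; and Cdkn2a, Pitx1, B2m, Tmprss2, Cdkn2b, Krt5, Krt14, Krt10, Lor, Mki67 and Apoe. Predicted genes and pseudogenes were left out. A further 21 genes were chosen after their values were seen, among them Tubb3, Kcnq1ot1, Trp53inp1, Ccng1, Psmb8, Tap2, H2-K1, Krt4, Tmprss11a, Lrig1, Krt79 and Ddx3y. Gene coordinates are from GENCODE (GRCm38) and promoter bases from RefSeq (GRCm38.p6). Alternatives were other scaling, no filter, no medium term, thinning, each medium alone, a stricter threshold, a replicate block, source table as a term and leaving out each library.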

Additional observations from a re-analysis of the deposited data

Results flagged for a closer look

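In early organoids with forskolin and inhibitor, the group with 4 libraries, 10 of 117 named genes had 1 library far from the other 3. Chance flags about 1 in 20 groups. Replicate 4 accounted for 5 of them. It was the highest for Krt10 (6589.5 CPM, others 185 to 461), Lor (6674, others 314 to 449.8), Apoe (1208, others 516 to 608) and Gata3, a transcription factor of epidermal differentiation (163, others 129 to 134). It was the lowest for Id2 (33.6 CPM, others 82.6 to 91.8). Replicate 1 was the highest for Ccng1 (193 CPM, others 123 to 127) and for Fbln1, an extracellular matrix protein (21.3, others 8.74 to 10.2). Replicate 2 was the highest for H2-K1 (246 CPM, others 171 to 178) and for the MHC class II gene H2-Ab1 (25.8, others 0 to 4.21). Replicate 3 was the highest for Bax, a p53 target that promotes cell death (47.6 CPM, others 33.9 to 35.0).

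For 3 genes the change with passaging under the inhibitor differed from that in FGF media by the interaction term, by 4.39 for Apoe, 3.94 for Tmprss2 and 2.75 for Eid1 on the log2 scale (edgeR adjusted p = 0.00942, 0.00942 and 0.0361).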

How the results depend on the processing

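The count of genes called for passaging under TGF-beta inhibitor (125) was 105 without the medium term, 129 with RLE and 116 with upper quartile scaling. It was 339 by DESeq2, 573 with no filter on low counts, 580 in inhibitor alone, 51 in the fit of 16 libraries, 13 after thinning, 2 with source table as a term, and 0 with forskolin and inhibitor only or at an adjusted p under 0.01. Leaving out 1 library gave 0 to 181 genes: 0 without either unpassaged library or replicate 2 of early organoids with inhibitor alone, 7 without its replicate 1, and 45 and 77 without replicates 2 and 3 with forskolin. Idi1 reversed to 0.44 with source table as a term. The interaction with FGF media (3 genes) gave 17 by DESeq2, 103 with no filter, 1 after thinning and 0 to 5 with 1 library left out, with 0 without any of the 4 unpassaged libraries and 5 without replicate 4 of early Fgf10 or of early forskolin and inhibitor. The interaction with forskolin (0 genes) gave 39 with no filter and 0 without any 1 early library; leaving out an unpassaged library leaves no such fit. The source table difference (1 gene) gave 0 at an adjusted p under 0.01, 124 by DESeq2, 328 with no filter, 28 with upper quartile scaling and 0 to 39 with 1 library left out: 39 without replicate 4 of early Fgf10, 2 without its replicate 2, and 0 without its replicate 1 or either Fgf1 library. The cause of these shifts was not tested. Unpassaged and early groups share only replicate number 1, and early groups also share numbers 2 to 4. Deviations from the group means of same-numbered early libraries correlated at -0.18 to 0.39 across genes. Between early Fgf10 and early forskolin and inhibitor, with 4 shared numbers, they correlated at -0.08 to 0.29. No reference value was computed for these correlations, and in a group of 2 libraries both deviations mirror each other. They therefore cannot settle whether same-numbered libraries share a mouse or culture. The labels give only a shared replicate number. With that number as a replicate block, 7 genes were called for passaging, 4 for the interaction with FGF media and 27 for that with forskolin. No paired analysis was possible for the source table difference because the numbers do not pair libraries across tables. Genes with few counts, such as Inhbb, Dkk3 and unpassaged Cdkn2a, are limited by depth.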
